A study of Phaseolus vulgaris with 18 samples.

Results

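The grain of Phaseolus vulgaris, the common bean, was compared with its pod over 27420 genes, of which 4644 carried no description in the deposited table, and 48 of these were abundant in grain and far scarcer in pod. A gene was taken into this set when its mean over the 9 grain libraries was at least 50 TPM and at least 4 times its mean over the 9 pod libraries. TPM is an abundance per unit of transcript length, scaled within each library, though the deposited columns did not all reach the same sum. Because these values chose the genes, their excess in grain over pod is a description here and was not tested. Grain is the developing seed, and the pod is the fruit that encloses it. Both were sampled at 10, 15 and 20 DAF, taken to mean days after flowering, with 3 libraries in each of the 6 groups and 18 in all. The labels name the plants of every group Phaseolus vulgaris 4004 and give no treatment. Tissue and stage are the only differences between the groups that the labels state. The labels do not say whether pods were emptied of grain, nor whether replicates were taken from different plants. The p-values therefore cover only the spread seen between replicate libraries, which can be technical. The series' design text names 4 periods where the labels hold 3 stages, and the stages of the labels were used.

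A bean seed first grows by cell division, then fills with storage proteins, starch and some oil, and later acquires tolerance of drying. Storage proteins of legumes include cupins of the phaseolin kind, lectins and their relatives, and small albumins, and a few genes of this sort can make up a large part of the messenger RNA of a filling seed. A missing description means only that the deposited table gives none, and how descriptions were assigned is not given in the sources used here. It says nothing of what the gene does, so the 48 genes are called by their identifiers throughout.

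The labelled tissues were checked on described genes. All 8 storage cupin genes and all 4 oleosin genes, which coat oil bodies of seeds, had the higher mean in grain, whereas none of the 34 light-harvesting genes did. Of the 85 late embryogenesis abundant genes, 33 had the higher mean in grain, and 18 were at 0 in every grain library. Storage cupin transcripts summed to 1214 ± 1059, 105906 ± 25914 and 119098 ± 16534 TPM in grain at 10, 15 and 20 DAF (SD, n = 3 each), and to between 15.2 and 72.6 TPM in the pod libraries. The cyclin or CDK genes, which drive cell division, summed to 1152 ± 270, 137 ± 24.8 and 87.1 ± 51.1 TPM over the same grain stages. In pods they summed to 321 ± 55.4, 142 ± 39.2 and 122 ± 31.6 TPM at 10, 15 and 20 DAF. Of these 37 genes, 27 had the higher mean in grain. The deposited TPM of a grain library summed to between 823001 and 999633, and that of a pod library to between 895916 and 993461, except for the pod library of 15 DAF replicate 3, which summed to 436072. Shares below are of each library's own sum. Read depth cannot be read from TPM, so it is unknown behind each value, and no counting interval is given.

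The 48 genes together held 1.83 ± 0.289% of grain TPM at 10 DAF, 14.9 ± 3.02% at 15 DAF and 16.3 ± 2.47% at 20 DAF (SD, n = 3 each). The single libraries held 1.67, 1.66 and 2.16% at 10 DAF, 17.4, 11.5 and 15.7% at 15 DAF, and 18.2, 13.5 and 17.2% at 20 DAF. Every library of the later stages stood above every library of 10 DAF, while those of 15 and 20 DAF overlapped. In pods the same genes held 0.0736 ± 0.0339, 0.0557 ± 0.04997 and 0.0372 ± 0.00697% over the same stages. These are bulk samples, so fewer cells of a type and less RNA per cell cannot be told apart. Per library, the 48 took between 15.1 and 20.0% of the TPM of all undescribed genes in grain at 10 DAF, between 68.2 and 79.4% at 15 DAF, and between 73.7 and 85.1% at 20 DAF.

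**Figure D1:**
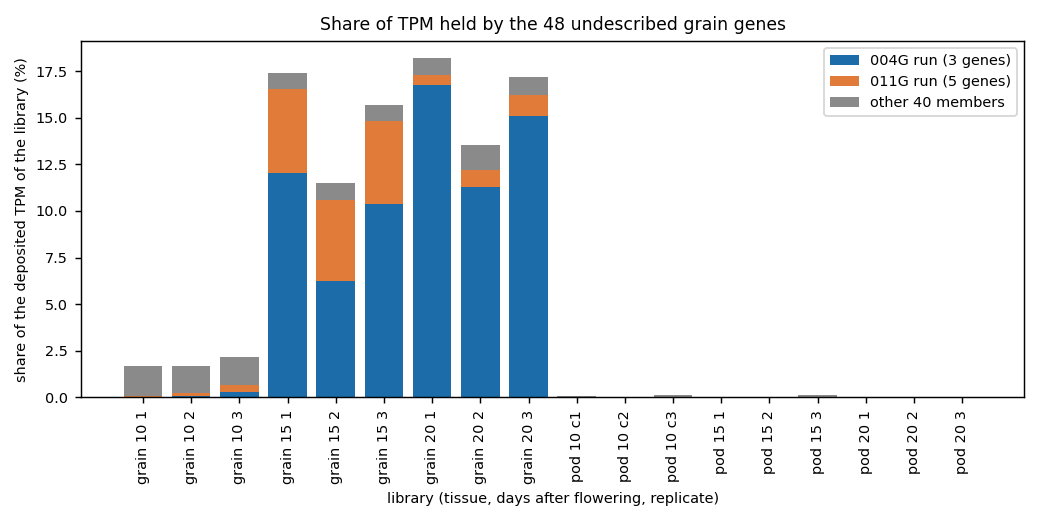
Stacked bars give the share of each library's deposited TPM held by the 3 genes of the Phvul.004G run, the 5 genes of the Phvul.011G run and the other 40 genes, with grain libraries left of pod libraries. The grain bars reach 11.5 to 18.2% at 15 and 20 DAF, against 1.66 to 2.16% at 10 DAF, whereas no pod bar passes 0.113%.

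Most of the share at 15 and 20 DAF came from 2 sets of neighbouring identifiers. The run Phvul.004G133900 to Phvul.004G134100, with 3 genes, held 0.133 ± 0.162, 9.55 ± 2.98 and 14.4 ± 2.79% of grain TPM at 10, 15 and 20 DAF. The run Phvul.011G205200 to Phvul.011G205600, with 5 genes, held 0.188 ± 0.141, 4.43 ± 0.0748 and 0.847 ± 0.289%. The other 40 genes held 1.51 ± 0.101, 0.871 ± 0.0371 and 1.08 ± 0.187%. The high share of the later stages therefore rested on 8 genes, and the other 40 held their largest share at 10 DAF. For comparison, the 285 described genes that met the same thresholds held 9.70 ± 1.79, 40.5 ± 3.31 and 51.1 ± 5.47% of grain TPM.

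Mean levels over the 9 grain libraries ran between 50.3 and 40409 TPM. In that measure 9 genes averaged at least 1000 TPM, 21 between 100 and 1000 TPM, and 18 less. The pod mean was under 1 TPM for 20 genes and at least 20 TPM for 8, and Phvul.008G199200 was listed at 0 in every pod library. For 28 genes the lowest of all 9 grain libraries lay above the highest of all 9 pod libraries, and for the other 20 those ranges over all stages overlapped. The rule chose the genes on this contrast, so the count only describes the set, and the share over all genes was not computed. The highest grain mean fell at 10 DAF for 20 genes, at 15 DAF for 6 and at 20 DAF for 22, against 148, 48 and 89 of the 285 described genes. By their identifiers, 8 genes belonged to Phvul.011G, 6 each to Phvul.002G and Phvul.008G, and 5 to Phvul.005G.

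**Figure D2:**
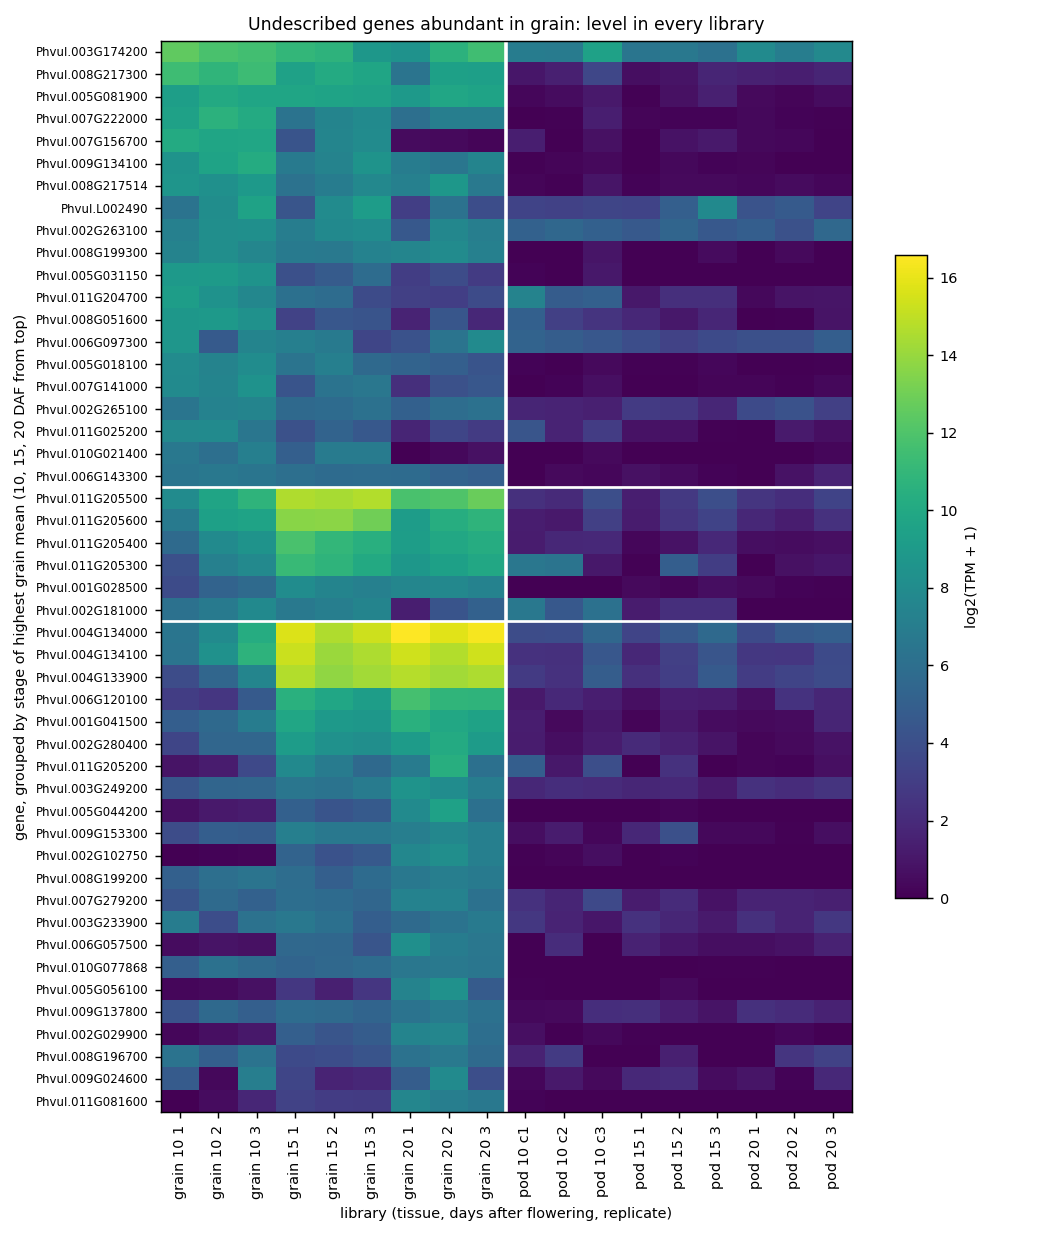
Each row is 1 of the 48 genes and each column 1 of the 18 libraries, grain left of pod, with colour giving log2(TPM + 1) and genes grouped by the stage of their highest grain mean. By group mean in grain, the 20 genes of the upper block are strongest at 10 DAF, the 6 of the middle block at 15 DAF and the 22 of the lower block at 20 DAF. Pod values are low for most genes, but 8 average at least 20 TPM in pod, and Phvul.003G174200 averages 201 TPM there.

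The most abundant gene was Phvul.004G134000. It had 85.7, 246 and 1233 TPM in the grain libraries of 10 DAF, 54669.7, 24635 and 41605 TPM in those of 15 DAF, and 98095, 59298 and 83817 TPM in those of 20 DAF. All libraries of 15 DAF lay below all libraries of 20 DAF and far above all of 10 DAF. At 20 DAF this gene alone held 8.19 ± 1.73% of grain TPM, and it ranked between 2 and 4 among all genes in each grain library of 15 and 20 DAF. Its pod values lay between 9.37 and 50.4 TPM.

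Its neighbours were also far higher at 15 and 20 DAF than at 10 DAF. Phvul.004G134100 had 80.6, 337 and 1651 TPM in grain at 10 DAF, 38864, 17452 and 23350.2 TPM at 15 DAF, and 42452, 26264 and 42941 TPM at 20 DAF. Phvul.004G133900 had 13.5, 42.7 and 183 TPM, then 26669, 14367 and 20197 TPM, then 26712, 19599.8 and 24261 TPM. For both, the later stages overlapped each other and stood clear of 10 DAF. In pods these 2 genes lay between 2.52 and 29.1 TPM.

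At 15 against 10 DAF in grain the 3 genes of this run were higher by 8.66 ± 0.75 (Phvul.004G133900), 7.01 ± 0.75 (Phvul.004G134000) and 6.14 ± 0.83 (Phvul.004G134100) as log2 of TPM + 1 (SE). The adjusted p-values were 1.5e-07, 1.65e-06 and 2.24e-05 in a limma fit over all 19861 genes tested. At 20 against 10 DAF the log2 differences were 8.90, 8.05 and 6.67, with adjusted p-values of 3.77e-08, 1.23e-07 and 3.3e-06. Between 15 and 20 DAF none of the 3 passed the test, with log2 differences of 0.24, 1.04 and 0.53 and adjusted p-values of 0.924, 0.452 and 0.787. The size of the rise depended on the youngest libraries, which differed among themselves. Without replicate 1 of 10 DAF, the lowest, the difference of Phvul.004G133900 at 15 against 10 DAF was 7.78, and without replicate 3, the highest, it was 9.62. The storage cupins stood in the same order in those libraries, with sums of 157, 1209 and 2274 TPM, and so did the oleosins, with 301, 715 and 878 TPM. The part of this in the spread was not tested.

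The proportions within the run shifted with stage. Phvul.004G134000 had between 5.76 and 6.72 times the TPM of Phvul.004G133900 at 10 DAF, between 1.71 and 2.06 times at 15 DAF, and between 3.03 and 3.67 times at 20 DAF. Against Phvul.004G134100 the ratio lay between 0.729 and 1.06 at 10 DAF, between 1.41 and 1.78 at 15 DAF and between 1.95 and 2.31 at 20 DAF. The ranges of the 3 stages did not overlap for either ratio. The identifiers on both sides of the run were near 0 in grain: the undescribed Phvul.004G133800 averaged 0.0448 TPM, and Phvul.004G134200, described as a DUF599 protein, averaged 0.0269 TPM in grain and 5.81 TPM in pod. How similar these genes are in sequence was not measured, and reads shared between copies would make the split between neighbours uncertain, here and in the other runs.

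The run on Phvul.011G was highest at 15 DAF. Phvul.011G205500 had 257, 829.6 and 1731 TPM in grain at 10 DAF, 25494, 21876 and 26510.5 TPM at 15 DAF, and 3582, 4146 and 6964 TPM at 20 DAF. Phvul.011G205600 had 108, 698 and 795 TPM, then 12887, 13488 and 7949 TPM, then 574, 1309.7 and 1749 TPM. For both genes every library of 15 DAF lay above every library of the other stages. In pods they did not pass 15.0 and 9.25 TPM in any library.

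At 15 against 10 DAF Phvul.011G205500 rose by 5.09 ± 0.66 (adjusted p = 1.53e-05, limma) and Phvul.011G205600 by 4.82 ± 0.70 (adjusted p = 4.52e-05, limma) on the log2 scale. Between 15 and 20 DAF Phvul.011G205600 fell by 3.34 ± 0.70 (adjusted p = 0.00687, limma) and Phvul.011G205500 fell by 2.39 ± 0.66 (adjusted p = 0.0384, limma). These falls were the less secure side of the peak. Without replicate 1 of grain at 20 DAF the adjusted p of Phvul.011G205600 was 0.0684. The fall of Phvul.011G205500 was lost under 7 alternatives, among them leaving out any of the 3 grain libraries of 15 DAF or replicate 1 or 2 of 20 DAF, with adjusted p-values up to 0.205.

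Phvul.011G205400 and Phvul.011G205300 also had their highest mean at 15 DAF, but their log2 differences at 20 against 15 DAF, -1.27 (adjusted p = 0.194, limma) and -1.30 (adjusted p = 0.602, limma), did not pass the test. Phvul.011G205400 averaged 220.5 ± 159.9, 2335 ± 1111 and 935 ± 313 TPM in grain at 10, 15 and 20 DAF, and rose at 15 against 10 DAF by 3.70 on the log2 scale (adjusted p = 7.6e-05, limma). Phvul.011G205300 averaged 129.7 ± 107, 1708 ± 612 and 697 ± 270.4 TPM, with a log2 difference of 4.31 ± 1.25 at 15 against 10 DAF (adjusted p = 0.00941, limma) and of 3.02 at 20 against 10 DAF (adjusted p = 0.041, limma). Both calls were lost without replicate 1 of grain at 10 DAF, where it had 15.3 TPM against 147 and 227 TPM in the other libraries, with differences of 3.15 (adjusted p = 0.0635) and 1.85 (adjusted p = 0.221). The call at 20 against 10 DAF was lost under 8 alternatives in all, among them leaving out replicate 1, 2 or 3 of grain at 20 DAF (adjusted p = 0.0617, 0.0782 and 0.099) or replicate 3 of pod at 15 DAF (adjusted p = 0.0557), no filter (adjusted p = 0.0758) and a pseudocount of 0.1 (adjusted p = 0.105).

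The first gene of the run had its highest mean at 20 DAF, not at 15 DAF. Phvul.011G205200 had 0.855, 1.43 and 11.6 TPM in grain at 10 DAF, 231, 116 and 50.02 TPM at 15 DAF, and 119.5, 1364 and 67.3 TPM at 20 DAF. Replicate 2 alone carried its high mean at 20 DAF. Its log2 difference at 20 against 10 DAF was 5.87 ± 1.05 (adjusted p = 0.000131, limma), and at 20 against 15 DAF it was 1.01 ± 1.05, which did not pass the test.

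**Figure D3:**
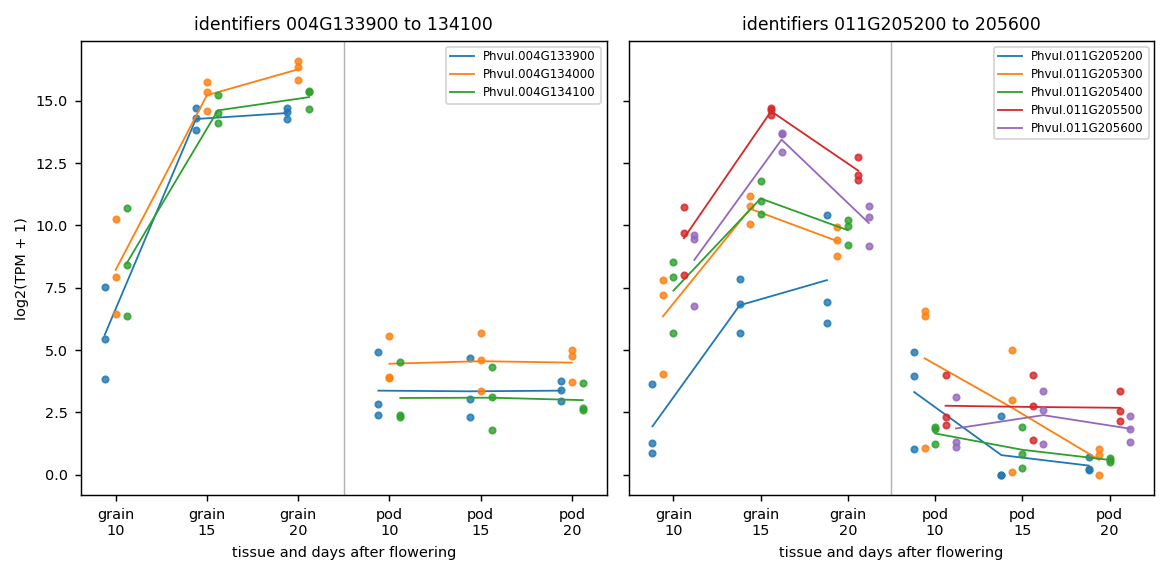
Points are single libraries and lines join group means, as log2(TPM + 1), for the 3 genes of the Phvul.004G run and the 5 genes of the Phvul.011G run, with grain at 10, 15 and 20 DAF left of pod. The Phvul.004G genes stay high at 20 DAF, whereas Phvul.011G205500 averages 4897 TPM at 20 DAF, against 24627 TPM at 15 DAF.

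The Phvul.011G run closes a stretch of 22 consecutive identifiers, Phvul.011G203600 to Phvul.011G205600, that all lack a description. Of these, 6 met the rule, 15 had the higher mean in grain and 6 the higher mean in pod. In pods 3 of them averaged over 1000 TPM. Phvul.011G204466 averaged 495 TPM in grain and 8699 TPM in pods of 10 DAF, Phvul.011G204532 averaged 1805 TPM in grain and 17557 TPM in pods, and Phvul.011G204600 averaged 17.1 TPM in grain and 8853 TPM in pods. Their pod means at 15 DAF were 2084, 5228 and 1308 TPM, and at 20 DAF 478, 938 and 92.9 TPM. The identifier next to them, Phvul.011G204700, belonged to the grain set, with 594, 353 and 199.9 TPM in grain at 10 DAF. Neighbouring undescribed genes of this stretch were thus high in different tissues. These 3 pod genes were named after their values were seen, and their differences were not tested.

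**Figure D4:**
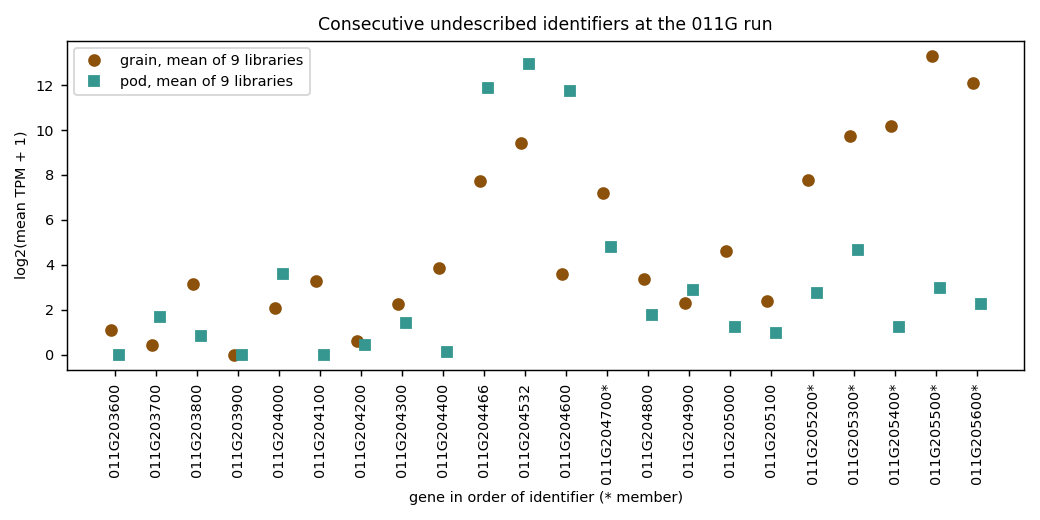
For the 22 consecutive undescribed identifiers of this stretch, circles give the mean over 9 grain libraries and squares the mean over 9 pod libraries, on the log2(mean TPM + 1) scale, with an asterisk on the 6 genes of the grain set. Pod means pass 1000 TPM at 3 genes in the middle of the stretch, and grain means pass 1000 TPM at 3 genes at its end.

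Stage differences within grain were tested for all 48 genes, each of which passed the filter on low values, 1 TPM or more in 3 libraries. A gene was called at a limma p-value under 0.05, adjusted over all genes, and a log2 difference of 1 or more either way. At 20 against 10 DAF, 22 of the 48 were higher, against 2.67% of all genes tested, and 18 were lower, against 52.9%. At 15 against 10 DAF, 20 were higher, against 1.91% of all genes, and 12 were lower, against 34.4%. Between 15 and 20 DAF, 9 were higher, against 0.896%, and 8 were lower, against 5.05%. Without replicate 2 of grain at 15 DAF these last counts were 5 and 4, and without replicate 1 of grain at 20 DAF 4 genes were lower. A mean over 9 libraries favours genes that are very high at 1 stage, so the counts are in part fixed by how the genes were chosen.

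The scale of the comparison moved with the abundant transcripts. The median log2 difference at 20 against 10 DAF was 0.97 over the 48 genes and -1.08 over all genes tested. After median-ratio scaling, which sets libraries to a common middle, it was 2.26 over the 48 and -0.10 over all genes, and the split was then 27 higher and 11 lower in place of 22 and 18. The 7 genes no longer called lower were Phvul.002G263100, Phvul.002G265100, Phvul.003G174200, Phvul.006G143300, Phvul.008G217300, Phvul.008G217514 and Phvul.L002490. The 5 genes then called higher were Phvul.003G233900, Phvul.005G081900, Phvul.008G199300, Phvul.010G077868 and Phvul.011G205600. A fall near 1 log2 unit in TPM is therefore close to the course of the middle gene.

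**Figure D5:**
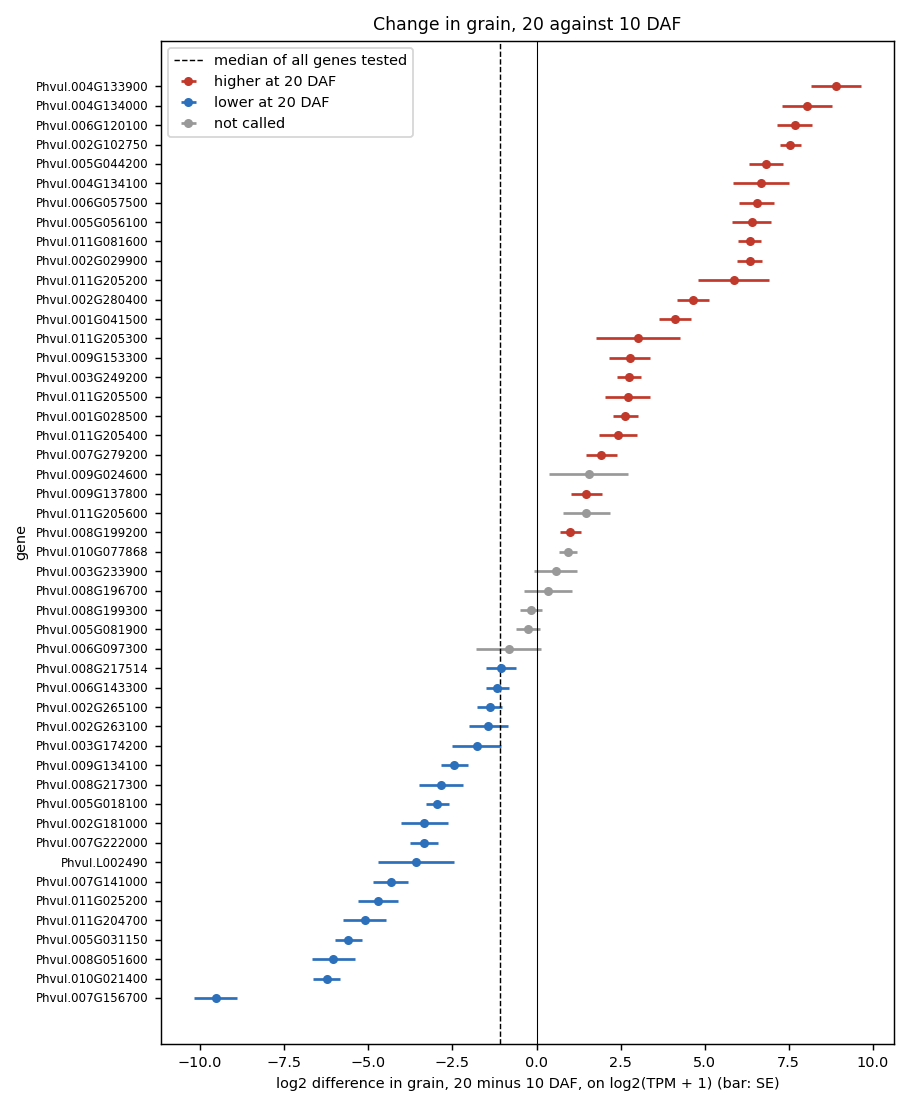
Each point is the log2 difference in grain at 20 against 10 DAF of 1 of the 48 genes on the log2(TPM + 1) scale, with its SE, coloured by whether it was called higher, lower or neither, and the dashed line marks the median of all genes tested, -1.08. The points run from 8.90 at Phvul.004G133900 to -9.53 at Phvul.007G156700.

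Among the 22 genes that rose between 10 and 20 DAF, 11 were called at 15 against 10 DAF and not at 20 against 15 DAF, and 7 were called at both steps. On the log2(TPM + 1) scale, which understates the change of genes with low values, Phvul.006G120100 had the largest difference outside the runs. It had 6.99, 5.06 and 24.6 TPM in grain at 10 DAF, 1499, 916 and 603 TPM at 15 DAF, and 3304, 1807 and 1762 TPM at 20 DAF, with at most 4.44 TPM in any pod library. No library of one stage reached the values of the next. Its log2 difference was 6.45 ± 0.51 at 15 against 10 DAF (adjusted p = 6.5e-08, limma) and 7.67 ± 0.51 at 20 against 10 DAF (adjusted p = 3.15e-09, limma).

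Phvul.001G041500 and Phvul.002G280400 were called at the first step and not at the second. Phvul.001G041500 had 29.9, 50.8 and 124 TPM in grain at 10 DAF, 890.3, 472 and 430.4 TPM at 15 DAF, and 1464, 975 and 753 TPM at 20 DAF. Phvul.002G280400 had 10.2, 43.7 and 44.0 TPM, then 576, 329.6 and 289 TPM, then 553, 1149 and 555 TPM. At 20 against 10 DAF the log2 differences were 4.13 (adjusted p = 1.44e-06, limma) and 4.65 (adjusted p = 3.46e-07, limma), while at 20 against 15 DAF they were 0.86 and 0.89 and did not pass. The later stages overlapped for both genes.

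The largest called rises at 20 against 15 DAF were in scarcer genes. Phvul.005G056100 had 0.212, 0.318 and 0.648 TPM in grain at 10 DAF, 5.56, 1.74 and 5.16 TPM at 15 DAF, and 171, 338 and 25.9 TPM at 20 DAF. Phvul.011G081600 had 0, 0.488 and 2.38 TPM, then 8.61, 6.59 and 6.27 TPM, then 192, 138 and 98.3 TPM. Phvul.005G044200 had 0.584, 1.23 and 1.43 TPM, then 33.1, 19.1 and 25.5 TPM, then 242, 722 and 69.8 TPM. The groups of 15 and 20 DAF did not overlap for these genes, though replicate 3 of 20 DAF was low for the first and the third of them.

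The log2 differences at 20 against 15 DAF were 4.60 ± 0.59 for Phvul.005G056100 (adjusted p = 0.000135, limma), 4.10 ± 0.35 for Phvul.011G081600 (adjusted p = 1.4e-06, limma) and 3.14 ± 0.52 for Phvul.005G044200 (adjusted p = 0.00107, limma). Phvul.002G102750 had at most 0.177 TPM in grain at 10 DAF, then 38.2, 16.9 and 24.1 TPM at 15 DAF and 206, 291 and 141 TPM at 20 DAF. It rose at 20 against 15 DAF by 2.98 ± 0.31 (adjusted p = 1.5e-05, limma) and at 20 against 10 DAF by 7.55 ± 0.31 (adjusted p = 2.91e-11, limma). No pod library held more than 0.559 TPM of any of these 4 genes. The 85 late embryogenesis abundant genes, which are known from seeds acquiring tolerance of drying, summed to 1631 ± 180.3, 3970 ± 1652 and 27025.5 ± 11958 TPM over the same grain stages. In pods they summed to 1277 ± 69.7, 701 ± 315 and 1019 ± 114 TPM. Only 33 of the 85 had the higher mean in grain, so the sum does not describe the list as a whole.

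Of the 18 genes that fell between 10 and 20 DAF, 4 were called at both steps and 7 at 15 against 10 DAF but not at the second step. Phvul.007G156700 fell furthest. It had 1132, 848 and 917 TPM in grain at 10 DAF, 18.7, 189 and 259 TPM at 15 DAF, and 0.382, 0.365 and 0.151 TPM at 20 DAF. Each stage lay wholly below the stage before it. The log2 difference was -3.27 ± 0.64 at 15 against 10 DAF (adjusted p = 0.000628, limma), -6.26 ± 0.64 at 20 against 15 DAF (adjusted p = 1.5e-05, limma) and -9.53 ± 0.64 at 20 against 10 DAF (adjusted p = 3.38e-09, limma). At 20 DAF it averaged 0.299 TPM in grain and 0.180 TPM in pod, and the libraries of the tissues overlapped.

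Other genes of young grain fell mostly at the first step. Phvul.008G051600 had 432, 472 and 331 TPM in grain at 10 DAF, 8.72, 21.9 and 18.4 TPM at 15 DAF, and 2.08, 20.8 and 2.57 TPM at 20 DAF. Phvul.005G031150 had 505, 513 and 373 TPM, then 15.3, 25.9 and 58.5 TPM, then 7.16, 13.3 and 6.32 TPM. At 15 against 10 DAF they fell by 4.65 ± 0.65 (adjusted p = 3.1e-05, limma) and by 3.95 ± 0.40 (adjusted p = 8.48e-07, limma) on the log2 scale. Phvul.007G222000, with 716, 1590.2 and 1118 TPM at 10 DAF, fell to 78.7, 177 and 239 TPM at 15 DAF and had 66.4, 135 and 133 TPM at 20 DAF. Its first step was -2.85 ± 0.43 (adjusted p = 6.18e-05, limma), and its pod values did not pass 1.59 TPM.

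Phvul.010G021400 and Phvul.002G181000 fell at the second step. Phvul.010G021400 had 99.6, 64.1 and 142 TPM in grain at 10 DAF, 32.1, 120.3 and 118 TPM at 15 DAF, and 0, 0.281 and 0.697 TPM at 20 DAF. Phvul.002G181000 had 73.4, 108 and 234 TPM, then 104, 134 and 181 TPM, then 1.62, 18.8 and 35.2 TPM. Both overlapped between 10 and 15 DAF and dropped clear of those values at 20 DAF. Between 15 and 20 DAF they fell by 5.91 ± 0.41 (adjusted p = 1.08e-07, limma) and by 3.47 ± 0.71 (adjusted p = 0.00576, limma) on the log2 scale.

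The most abundant gene of young grain within the set was Phvul.003G174200, with 5852, 3659 and 3052 TPM in grain at 10 DAF, 2036, 1688 and 446 TPM at 15 DAF, and 349, 1609 and 2841 TPM at 20 DAF. It made up between 14.6 and 35.8% of the TPM of the 48 genes in the libraries of 10 DAF. The stages of 10 and 20 DAF did not overlap, but the libraries of 20 DAF spread widely. Its log2 difference at 20 against 10 DAF was -1.78 ± 0.73 (adjusted p = 0.0392, limma), which was -0.91 (adjusted p = 0.281) without replicate 1 of 20 DAF and -0.48 (adjusted p = 0.651) after median-ratio scaling. Leaving out replicate 1 or 2 of 10 DAF also ended this call, with adjusted p-values of 0.12 and 0.0597. Its grain mean was 11.9 times its pod mean, the lowest ratio of the 9 genes with at least 1000 TPM, and its pod values lay between 72.4 and 240.2 TPM except in pod c3 of 10 DAF, which had 713 TPM.

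The genes Phvul.008G217300 and Phvul.008G217514, separated in the table by 1 described gene near 0, both had their highest grain mean at 10 DAF. Phvul.008G217300 had 2789, 1846 and 2613 TPM in grain at 10 DAF, 717, 1138 and 853 TPM at 15 DAF, and 81.5, 696 and 647 TPM at 20 DAF, with a log2 difference of -2.83 ± 0.66 at 20 against 10 DAF (adjusted p = 0.00119, limma). After median-ratio scaling its difference was -1.53 (adjusted p = 0.0694). Phvul.008G217514 averaged 399 ± 76.7, 136 ± 68.7 and 229.7 ± 183 TPM over the stages. Its libraries of 10 and 20 DAF overlapped, with 406, 319 and 471 TPM against 146, 440 and 103 TPM. It was called lower at 20 against 10 DAF by 1.06 (adjusted p = 0.0408, limma). That call was lost with a pseudocount of 0.1, without a filter, with equal column sums and after median-ratio scaling. The pair Phvul.008G199200 and Phvul.008G199300 stayed within a narrower range. They averaged 60.3 ± 24.1, 48.2 ± 14.8 and 116 ± 19.1 TPM and 218 ± 64.9, 126 ± 31.4 and 195 ± 56.2 TPM. Phvul.008G199200 was still called higher at 20 DAF, by 1.29 against 15 DAF (adjusted p = 0.0183, limma) and 1.01 against 10 DAF (adjusted p = 0.00869, limma). The pod libraries of Phvul.008G199200, all at 0, add no spread to the shared estimate, so these p-values can be too small. Phvul.008G199300 was not called in TPM. After median-ratio scaling it was higher at 20 against 10 DAF by 1.14 (adjusted p = 0.0106, limma). The identifier before them, Phvul.008G199100, is described as a member of the lipid-transfer and 2S albumin superfamily, small proteins that include seed storage proteins, and averaged 1338 ± 650.4, 405 ± 173 and 332 ± 47.3 TPM in grain.

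Of the 48 genes, 8 were not called at 20 against 10 DAF. Phvul.005G081900 held a similar TPM over the stages, with 614, 1071 and 855 TPM in grain at 10 DAF, 870.1, 794 and 732 TPM at 15 DAF, and 478, 892 and 781 TPM at 20 DAF, and at most 1.76 TPM in any pod library. All 3 stages overlapped. Its log2 difference at 20 against 10 DAF was -0.25 ± 0.35 in TPM (adjusted p = 0.548, limma), but 1.05 (adjusted p = 0.0239) after median-ratio scaling, so its direction depends on the scaling. Phvul.009G024600 differed widely between replicates, with 28.9, 239 and 15.0 TPM at 20 DAF, against 26.2, 0.259 and 133 TPM at 10 DAF.

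In pods the shares of the 48 genes called were near those of all genes. The rule took genes scarce in pod, 20 of them with a pod mean under 1 TPM. Such genes can hardly be called in pod, so these counts are in part fixed by the rule. At 15 against 10 DAF 3 were called, all lower, against 6.76% of all genes called in either direction. At 20 against 15 DAF limma called 0, against 1.63% of all genes, and 3 had an unadjusted p under 0.05. At 20 against 10 DAF 6 were called, 5 lower and 1 higher, against 12.1% of all genes. Without pod c2 or without pod c3 the first of these counts was 5, and without pod 15 DAF replicate 1 or 3 the second was 1.

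The falls in pods came from genes present in young pods. Phvul.011G204700 had 594, 353 and 199.9 TPM in grain of 10 DAF, 67.4, 56.5 and 12.7 TPM in that of 15 DAF, and 7.69, 7.50 and 12.8 TPM in that of 20 DAF. In pods it had 170.4, 27.0 and 33.7 TPM, then 1.10, 3.74 and 3.74 TPM, then 0.291, 0.852 and 0.955 TPM. It fell in both tissues. The log2 difference at 20 against 10 DAF was -5.11 ± 0.64 in grain (adjusted p = 3.32e-06, limma) and -5.04 ± 0.64 in pod (adjusted p = 3.53e-05, limma). Phvul.002G181000 had 99.6, 22.4 and 70.6 TPM in pods of 10 DAF, between 1.44 and 3.75 TPM at 15 DAF and 0 in all 3 libraries of 20 DAF, a log2 difference of -5.79 ± 0.71 at 20 against 10 DAF (adjusted p = 2.68e-05, limma).

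Phvul.011G025200 fell in pods at 15 against 10 DAF by 2.41 on the log2 scale (adjusted p = 0.0168, limma), but its adjusted p was 0.117 without pod c1 and 0.0651 without pod 15 DAF replicate 3. Phvul.011G205300 had at most 1.03 TPM in pods of 20 DAF, against 95.2, 81.3 and 1.10 TPM in those of 10 DAF, a log2 difference of -4.07 (adjusted p = 0.0369, limma). That call was lost under 7 alternatives, among them leaving out pod c1 or pod c2 or any of the pod libraries of 20 DAF. The 1 gene called higher in pod was Phvul.002G265100. In grain it averaged 143, 59.4 and 54.0 TPM over the stages. In pods it had 12.2, 17.0 and 7.74 TPM at 20 DAF, against 2.36, 2.08 and 1.78 TPM at 10 DAF (log2 difference 2.06, adjusted p = 0.000917, limma).

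The traces of the most abundant genes in pods varied by library. The Phvul.004G run summed to 97.4 TPM in pod c3 of 10 DAF and to 94.3 TPM in pod 15 DAF replicate 3, and to between 15.9 and 55.8 TPM in the other 7 pod libraries. The 8 storage cupins summed to 72.2 and 72.6 TPM in those 2 libraries and to between 15.2 and 47.2 TPM in the others, with none of the 8 at 0 in every pod library. In deposited TPM the oleosins had 47.1 and 9.41 TPM in the same 2 libraries and up to 83.6 TPM elsewhere. With all libraries rescaled to a full TPM sum, the run had 98.1 TPM in pod c3 and 216 TPM in pod 15 DAF replicate 3, the library with the low sum, and the cupins had 72.8 and 167 TPM. The oleosins then had 47.5 TPM in pod c3, against 43.6 and 25.6 TPM in pod c1 and c2. In pod 15 DAF replicate 3 they had 21.6 TPM, against 18.7 and 12.8 TPM in replicates 1 and 2. Pods of 20 DAF held between 37.3 and 85.5 TPM of them. The part of RNA from grain in these traces was not tested.

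Whether the change from 10 to 20 DAF differed between the tissues was tested as an interaction, the grain change minus the pod change. Of the 48 genes, 34 were called, 21 positive and 13 negative, against 56.5% of all genes. The rule took genes far scarcer in pod, 20 of them with a pod mean under 1 TPM. For these the pod change is held near 0, and the interaction largely repeats the grain change. In pod itself, 42 of the 48 were not called at 20 against 10 DAF. The largest were Phvul.007G156700 at -9.05 ± 0.91 (adjusted p = 1.69e-06, limma), Phvul.004G133900 at 8.90 ± 1.06 (adjusted p = 9.69e-06, limma) and Phvul.011G205200 at 8.81 ± 1.49 (adjusted p = 0.000239, limma). For Phvul.011G205200 the grain change was 5.87 and the pod change -2.95, and without replicate 2 of grain at 20 DAF the interaction was 7.51. For Phvul.011G204700, which fell in both tissues, the interaction was -0.07 ± 0.90 (adjusted p = 0.946, limma).

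The described genes whose course over the 9 grain libraries was most like that of the abundant genes were found by Pearson's r of log2(TPM + 1) among the 1930 described genes whose grain mean reached 50 TPM. The values are a description, since all genes share the same libraries and the same stage differences. For Phvul.004G134000 they were Phvul.001G263900, a DUF1264 protein (r = 0.994), Phvul.004G158300, described as a concanavalin A-like lectin protein kinase (r = 0.993), and Phvul.007G060000, a PAP85 cupin (r = 0.992). Phvul.004G158300 averaged 1446 ± 1483, 50681 ± 13226 and 97123 ± 20740.5 TPM in grain at 10, 15 and 20 DAF. For Phvul.004G134100 they were Phvul.004G158000, of the same description (r = 0.995), Phvul.004G158300 (r = 0.994) and Phvul.007G060000 (r = 0.993). For Phvul.004G133900 they were the PAP85 cupins Phvul.007G060000 (r = 0.996) and Phvul.007G059725 (r = 0.993), and Phvul.006G204400, described as PYD2, which in Arabidopsis acts in pyrimidine breakdown (r = 0.993).

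For the run that peaked at 15 DAF the likeness was looser. Phvul.002G239300, described as a granulin repeat cysteine protease, was nearest to Phvul.011G205500 (r = 0.969) and to Phvul.011G205600 (r = 0.940), and averaged 69.8 ± 67.0, 679 ± 129 and 222 ± 156 TPM in grain at 10, 15 and 20 DAF. Next for Phvul.011G205500 were Phvul.L002943, described as the methyl-CpG-binding protein MBD7 (r = 0.952), and Phvul.003G286200, described as IAA8, an auxin-responsive regulator (r = 0.951). Next for Phvul.011G205600 were Phvul.002G248000, a small subunit of acetolactate synthase (r = 0.937), and Phvul.006G072600, a thioredoxin superfamily protein (r = 0.935).

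The thresholds cut through a continuous range. Just inside the level threshold were Phvul.011G081600 and Phvul.009G024600, with grain means of 50.3 and 50.8 TPM, and just outside were Phvul.006G221400 and Phvul.011G111100, with 48.2 and 46.7 TPM. Just inside the ratio threshold were Phvul.002G181000 and Phvul.011G204700, with grain means 4.42 and 5.43 times their pod means, and just outside were Phvul.003G110300 and Phvul.L002390, each with 3.74 times.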

How the data were processed

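RNA-seq libraries came from grain and pod, and per the labels' protocols total RNA was taken with TRIzol and libraries were made with a SMARTER mRNA kit. The authors deposited 1 table of TPM for 27420 genes. Not given in the sources used here: aligner, counter, genome build and the treatment of shared reads. Table columns were assigned by the tissue, stage and number in their names. The pod columns of 10 DAF carry other numbers than their titles and are called c1, c2 and c3.

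From the deposited TPM, log2(TPM + 1) was fitted with limma 3.58.1 in R 4.3.3 for the 19861 genes that reached 1 TPM in 3 or more libraries, as 6 group means, with 12 residual degrees of freedom and a trend of variance on intensity. P-values were adjusted by Benjamini-Hochberg over all genes tested. The pseudocount understates the change of low genes. The procedure was tested on simulated data for grain at 20 against 10 DAF. It recovered 40 of 100 genes changed by 1.5 log2 units and 96 of 100 changed by 3. There were 6 false calls among 19861 genes. In the simulation each other gene had the same mean in all libraries. In the data 52.9% of genes were called lower and 2.67% higher at this comparison, so the adjustment was less strict. The rates of the simulation therefore do not carry over to the data. A difference near 1.5 that did not pass can still be a missed change. Named genes are the 15 most abundant, the largest called differences (4 each way per grain comparison, 3 per pod comparison and for the interaction, from 20 TPM in grain comparisons), the genes beside each threshold, the described genes most alike and adjacent members. Genes named for another reason are the 3 pod genes of the Phvul.011G stretch and those listed by name where a scaling changes their call, and Phvul.002G265100, the 1 gene higher in pod. The genes and lists were chosen with earlier results of these data known. Reference identifiers matched 0 genes, so no sequence or coordinate is given. Alternatives changed the pseudocount, filter, scaling, groups fitted, trend, minimum difference and single libraries. Same-numbered libraries correlated between -0.114 and 0.237 in their deviations, 6 of 12 pairs above 0.1, so the numbers were not taken to pair them.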

Additional observations from a re-analysis of the deposited data

Results flagged for a closer look

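A difference between the tissues in the change from 10 to 20 DAF, tested as an interaction in the limma fit, singled out 34 of the 48 genes, and 56.5% of all genes tested passed the same test. The largest were Phvul.007G156700, with an interaction of -9.05 on the log2 scale (adjusted p = 1.69e-06), Phvul.004G133900, with 8.90 (adjusted p = 9.69e-06), and Phvul.011G205200, with 8.81 (adjusted p = 0.000239). For Phvul.007G156700 the log2 change was -9.53 in grain and -0.49 in pod. For Phvul.004G133900 it was 8.90 in grain and 0.00 in pod. The rule took genes far scarcer in pod, 20 of them with a pod mean under 1 TPM. Where the pod change is held near 0 in this way, the interaction largely repeats the grain change.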

How the results depend on the processing

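The counts and shares, 14 results in all, were recomputed under 318 alternatives, and 299 stayed within 1.5 times the reported count or within 1 SD of the reported share. With a minimum of 100 TPM the rule took 30 genes. With the 50 most abundant genes left out, 5 of them members, the share was 2.69% at 15 DAF and 3.12% at 20 DAF. Lower calls at 15 against 10 DAF were 7 after median-ratio scaling and 6 with those 50 genes left out, and at 20 against 10 DAF 11 under each. At 20 against 15 DAF lower calls were 5 with a pseudocount of 0.1, and leaving out single libraries gave 5 to 10 higher and 4 to 10 lower calls. For pods at 15 against 10 DAF the calls were 8 with only the groups compared in the fit, and 2 to 5 with single libraries left out. At 20 against 15 DAF they were 1 with a pseudocount of 0.1, 3 with only the groups compared, and 0 to 1 with single libraries left out. With the replicate number as a block, pods at 20 against 15 DAF had 2 calls, and grain at 20 against 10 DAF had 23 higher and 18 lower. That block does not rest on a known pairing: a library correlated best with its own number in 13 of 24 cases. The pod 10 DAF columns carry no usable number, so comparisons with them had no block.

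For single genes, 67 comparisons were recomputed under 1851 alternatives: 1782 kept direction and side of the threshold, 34 lost a call, 21 gained one and 14 changed sign. The sign changes were in 2 genes. Phvul.005G081900 had log2 differences at 15 against 10 DAF of 0.83 (median-ratio scaling), 0.0593 (equal column sums) and 0.93 (50 genes left out), and -0.26 to 0.14 without single libraries. At 20 against 15 DAF it had 0.22 (median-ratio scaling) and -0.38 to 0.0672 without single libraries, and at 20 against 10 DAF 1.05 (median-ratio scaling), 0.89 (50 genes left out) and -0.46 to 0.0165. Phvul.003G174200 at 20 against 15 DAF had -0.0884 (equal column sums) and -0.66 to 0.89 without single libraries. The cause was not tested. Depth is unknown, so low TPM values, such as traces in pods, carry an error that cannot be stated.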
